A study of Mus musculus with 4 samples.

Results

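The imprinted growth-control genes of this report are H19, Meg3, Cdkn1c, Grb10, Dlk1, Peg3, Plagl1, Mest and Ndn, 9 of the 20049 named genes on the arrays. They were taken by name, as every non-control probe whose gene name in the scanner files was one of the 9, which gave 20 of 41174 probes. The rule uses names and no measured value, but the genes were listed with earlier results of these data known. Their expression was compared in left ventricles of KDM5B knockout (KO) and wild-type (WT) mice at 7 days after myocardial infarction.

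Genomic imprinting is the silencing of a gene on the chromosome from one parent, through DNA methylation marks that were laid down in the egg or the sperm. Many imprinted genes set growth before birth. Those expressed from the paternal copy often promote it and those from the maternal copy often restrain it, and many are turned down in the heart and other organs as the animal matures. H19, Meg3, Cdkn1c and Grb10 are expressed from the maternal allele in most tissues, and Dlk1, Peg3, Plagl1, Mest and Ndn from the paternal allele. The arrays read the sum of both alleles.

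WT and KO mice were 8 to 10 weeks old at surgery and all were labelled male. The left anterior descending coronary artery was tied permanently in both groups, and hearts without an infarct were not analysed here. The KO mice carried a CRISPR/Cas9 deletion in the part of Kdm5b that encodes the catalytic JmjC domain, in every cell of the body, and the WT mice were described as littermates on C57BL/6. Each group had 2 Agilent one-colour arrays, numbered 2 and 3 in the titles and called WT 2, WT 3, KO 2 and KO 3 here. Where a pair of values is given for a group, number 2 comes first. The labels do not say how many hearts each array stands for, so the p-values measure only the spread between these arrays.

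On each array 68.15% to 72.04% of the probes stood well above background, and the 75th percentile of the signal ran from 607.6 on KO 2 to 976.1 on WT 3. The targeted gene, Kdm5b, had 2 probes, with log2 differences between KO and WT of -0.996 and -1.19. These were -1.534 and -1.921 at number 2 but -0.458 and -0.457 at number 3. The limma fit described below gave both probes an adjusted p of 0.9999, so it did not call the targeted gene either. In both probes the KO arrays lay under the WT arrays but stayed well above background. Xist, the RNA of the inactive X chromosome, was well above background on WT 2 and KO 2 and not on WT 3 and KO 3, against the male label. The Y-linked gene Ddx3y showed the opposite, so comparisons are also given within each number. On the slide the WT samples took positions 1 and 2 and the KO samples 3 and 4, and an effect of position cannot be told apart from genotype.

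Signals are given on the log2 scale after subtraction of each array's 75th percentile and are called relative signals, and differences are KO minus WT. By limma with Benjamini-Hochberg adjustment over all 28305 tested probes, 0 of the 9 genes passed an adjusted p under 0.05 with a fold change over 2, against a background of 0.00% of all 15062 tested genes. The adjusted p was 0.9999 for each of the 9, and 0 of them had an unadjusted limma p under 0.05, against 1.43% of all tested genes. With KO 2 left out the H19 difference was 0.782. With KO 3 left out, KO 2 alone stood for the KO group, and 7 of the 9 were lower and 2 higher. The largest differences there were -2.13 for H19, -1.48 for Meg3, -1.35 for Plagl1 and -1.17 for Peg3. With all 4 arrays the lowest unadjusted p was 0.0531, for Peg3. With 2 arrays against 2, a two-sided exact permutation test cannot give a p under 0.333. A p that misses the threshold does not show that the groups were alike.

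For each gene the brightest tested probe was used, and 19 of the 20 probes were bright enough to test. On average 7 of the 9 genes were lower in KO, against 6767 of all 15062 tested genes. The 2 higher ones were Mest and the brighter probe of Dlk1, whose probes disagreed. Plagl1 and Grb10, counted as lower, each had 1 dimmer probe with the other sign, at 0.019 and 0.0009. The median difference of the 9 was -0.198, against 0.0363 over all tested genes. This direction rested on KO 2, since without it 3 of the 9 were lower and 6 higher, with a median of 0.0697. Relative to the fibroblast and matrix genes 3 were lower and 6 higher, with a median of 0.283. That scaling shifts every gene on an array alike. It raised all differences, as the mean of the matrix genes differed by -0.832 at number 2 and -0.131 at number 3. The median of other imprinted genes rose with it from -0.0183 to 0.463, so it does not set the 9 apart. Without that scaling the median of the 9 was -0.38 at number 2 and 0.0318 at number 3. The corresponding values over all tested genes were 0.0429 and 0.0277. KO 2 was the lowest of the 4 arrays for 6 of the 9 genes, against 39.9% of all tested genes, and for 16 of the 19 tested probes, against 41.4% of all tested probes. Probes of 1 gene are not independent, and 5 of the 19 were of Meg3. The groups did not overlap for 1 gene, Peg3, which was lower in KO, against 8.90% of all tested genes. They were separated with KO higher for 0 of the 9, against 13.3% of all tested genes. In bulk tissue such as this, fewer cells of a type and less RNA per cell cannot be told apart.

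**Figure D1:**
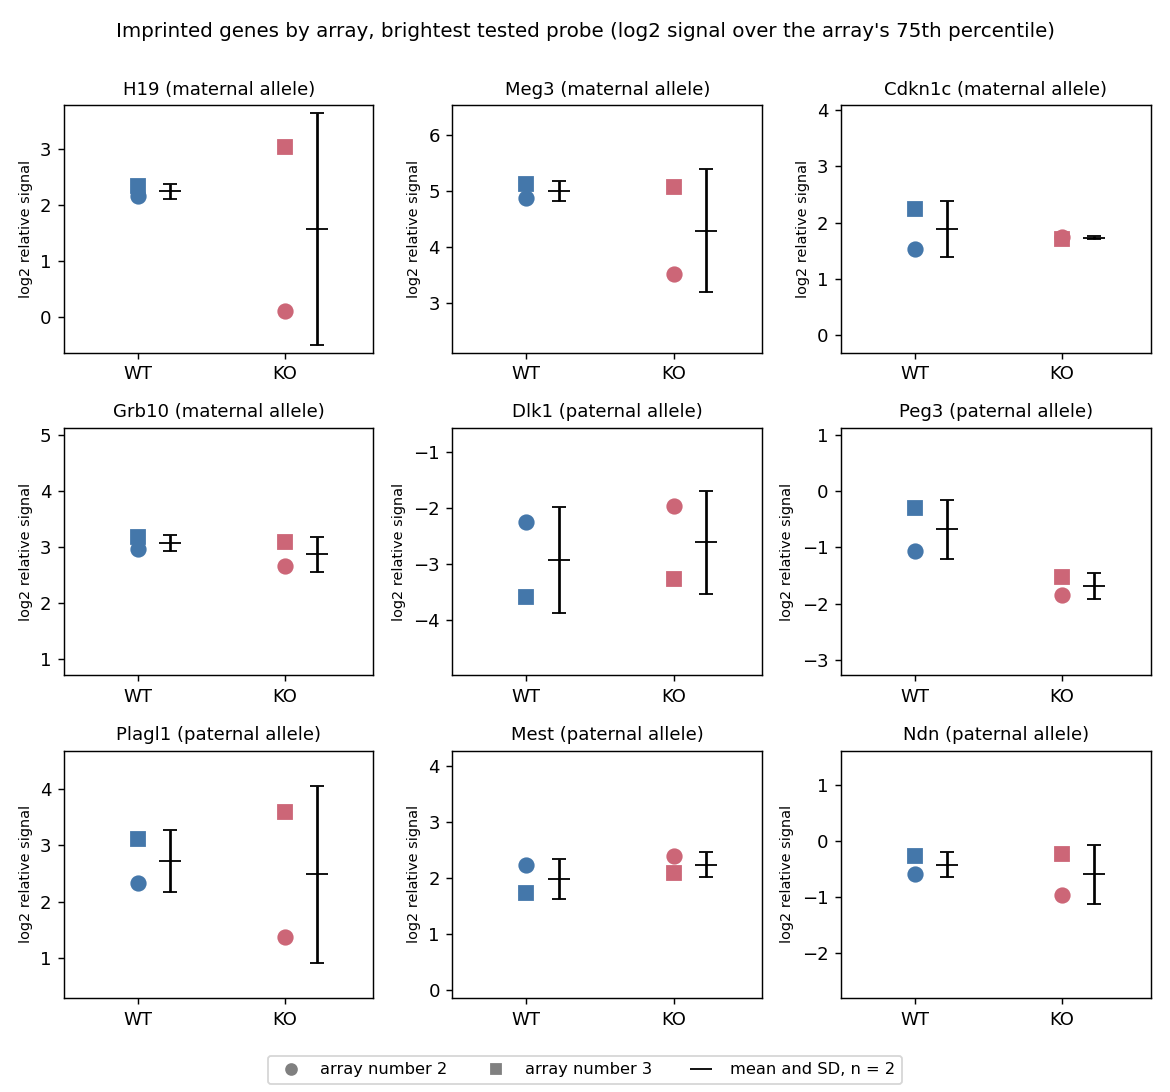
Relative log2 signal of the brightest tested probe of each of the 9 genes in WT and KO arrays. Each panel spans the same number of log2 units, circles are number 2 and squares number 3, and bars are the mean and SD of 2 arrays. H19, Meg3 and Plagl1 were lowest on KO 2 and close to or above WT on KO 3, and in Peg3 the groups did not overlap.

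Peg3 encodes a large zinc finger protein that takes part in growth and in maternal behaviour. Its brightest probe, on chromosome 7 at 6658774 to 6658833 (mm9), had a relative signal of -1.06 and -0.31 in WT and -1.85 and -1.52 in KO. The difference was -1.004 ± 0.36 (SE), a fold of 2.01, and it was -0.79 at number 2 and -1.22 at number 3. Peg3 was the 1 gene of the 9 past a fold change of 2, against 2.35% of all tested genes that were lower by that much. Its difference lay at that threshold and was short of it in other settings, at -0.802 with normexp, -0.523 relative to the matrix genes and -0.63 without WT 3. The count past a fold change of 2 was 0 in those settings and changed with the array left out. The WT arrays themselves differed by more than the KO arrays did. A further probe at 6660440 to 6660499 lay on the same side, with -1.30 and -0.78 in WT and -1.90 and -1.62 in KO. The difference at this probe was -0.72 ± 0.30 (SE). The third Peg3 probe was well above background on WT 3 only, and was not tested. Peg3 shares a start region with Usp29, a paternally expressed gene that runs the other way. Usp29 had a relative signal of -2.68 and -2.73 in WT and of -2.50 and -2.99 in KO, and its groups overlapped. Its difference was -0.03 ± 0.27 (SE).

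Meg3 is a long noncoding RNA of the Dlk1 to Dio3 domain on chromosome 12, known as a growth suppressor. The gene was read at separate places by 5 probes, and all were well above background on all 4 arrays. Their sequences, as the scanner files give them, are shown from the brightest to the dimmest because the same array stood apart at each.
Meg3 probe 1: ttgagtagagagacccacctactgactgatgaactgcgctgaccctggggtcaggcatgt
Meg3 probe 2: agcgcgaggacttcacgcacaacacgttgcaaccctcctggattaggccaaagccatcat
Meg3 probe 3: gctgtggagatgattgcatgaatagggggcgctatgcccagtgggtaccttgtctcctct
Meg3 probe 4: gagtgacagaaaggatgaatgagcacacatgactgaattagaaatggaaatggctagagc
Meg3 probe 5: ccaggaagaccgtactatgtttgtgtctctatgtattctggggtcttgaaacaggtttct
On mm9, probe 1 maps to chr12:110809678-110809737, probe 3 to chr12:110800898-110800957, probe 4 to chr12:110799558-110799617 and probe 5 to chr12:110797172-110797231, all on the plus strand. The files place probe 2 at chr12:110787974-110796459, an interval longer than the probe.

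Probe 1 of Meg3 had a relative signal of 4.86 and 5.12 in WT and 3.51 and 5.06 in KO. Thus KO 2 stood below the other arrays, and KO 3 lay between the WT arrays. The difference was -0.71 ± 0.61 (SE). At number 2 the 5 probes differed by -1.84 to -1.35, and at number 3 by -0.15 to 0.28. Past a fold change of 2, H19 and Meg3 were lower at number 2, 2 of the 9 genes, against 9.39% of all tested genes. At number 3 the 1 gene lower by that much was Peg3, against 1.78% of all tested genes. Higher by that much were 0 of the 9 at number 2 and 0 at number 3, against 6.95% and 2.58% of all tested genes. Of the 19 tested probes 8 were lower by more than 2-fold at number 2, against 8.84% of all tested probes, and these were the 5 of Meg3, both of H19 and the dimmer one of Dlk1.

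H19 is a long noncoding RNA that is abundant in fetal tissue, restrains growth and is the host of a microRNA. Both H19 probes are shown because they differed between the arrays by similar amounts.
H19 probe 1: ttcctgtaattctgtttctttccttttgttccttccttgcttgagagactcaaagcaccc
H19 probe 2: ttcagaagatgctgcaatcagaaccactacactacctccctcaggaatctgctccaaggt
Probe 1 maps to chr7:149761769-149761828 (mm9, minus strand). Probe 2 spans chr7:149762018-149762165 on the same strand, 148 bases for a probe of 60.

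H19 had the widest spread between the KO arrays among the 9 genes. Probe 1 read 2.15 on WT 2 and 2.34 on WT 3, but 0.11 on KO 2 and 3.03 on KO 3. Thus one KO array lay below both WT arrays and the other above them. Probe 2 did the same, with 0.77 and 1.02 in WT against -1.23 on KO 2 and 1.48 on KO 3. The mean difference of probe 1 was -0.68 ± 1.09 (SE), made of -2.04 at number 2 and 0.69 at number 3. Without KO 2 the difference was 0.782 for H19, and for Meg3 it was 0.0697.

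Igf2, the growth factor gene next to H19 that is expressed from the other allele, did not have the H19 pattern. It read 1.34 and 2.35 in WT and 1.37 and 1.84 in KO, so the KO arrays lay within the WT range. Its difference was -0.24 ± 0.45 (SE).

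The noncoding RNAs downstream of Meg3 were low on KO 2 as well. Rian read -1.10 and -1.21 in WT, -2.67 on KO 2 and -0.71 on KO 3. Mirg, which hosts microRNAs, read -0.09 and 0.03 in WT, -1.14 on KO 2 and 0.40 on KO 3. Both lay below WT on KO 2 and above WT on KO 3. Dio3, the gene at the far end of the domain whose enzyme inactivates thyroid hormone, read -0.13 and -1.55 in WT and -2.84 and -0.58 in KO. Its WT arrays differed by more than 1 log2 unit.

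Dlk1, at the near end, encodes a membrane protein related to Notch ligands that holds back fat cell differentiation. Its 2 tested probes disagreed. The brighter probe, at 110698428 to 110698487 on chromosome 12, read -2.25 and -3.59 in WT and -1.97 and -3.26 in KO. This probe divided the arrays by number, as Xist and Ddx3y did, and not by genotype. KO was higher by 0.29 and 0.33 within the numbers. The dimmer probe read -4.38, -4.13, -5.39 and -4.35 on the same arrays, was not well above background on KO 2, and gave -1.005 at number 2 and -0.22 at number 3. With the mean of both probes the Dlk1 difference was -0.152 in place of 0.31, so no direction can be given for this gene.

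**Figure D2:**
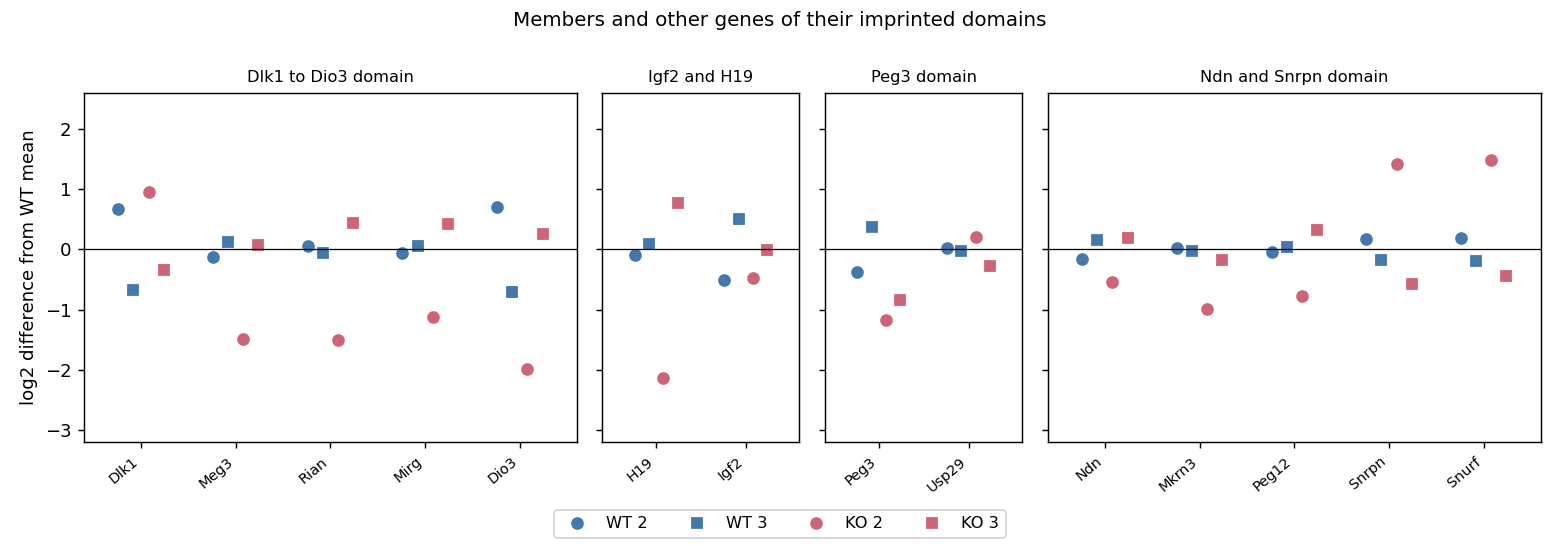
Log2 difference of each array from the mean of WT 2 and WT 3, for members and for other genes of their imprinted domains, 1 probe per gene. Within the Dlk1 to Dio3 domain KO 2 was the lowest array for Meg3, Rian, Mirg and Dio3 and the highest for the brighter Dlk1 probe. The dimmer Dlk1 probe, not drawn, was lowest on KO 2. Usp29 stayed near 0 on the arrays where Peg3 was low.

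Plagl1 encodes a zinc finger transcription factor that arrests the cell cycle and is known to bind other imprinted genes, H19 and Cdkn1c among them. Its brighter probe, on chromosome 10 at 12851280 to 12851339, read 2.33 and 3.11 in WT and 1.37 and 3.60 in KO. As for H19, the KO arrays lay on either side of the WT arrays. The dimmer probe gave the same order of arrays, with -3.27, -2.44, -3.78 and -1.89, but a mean difference of 0.02 ± 0.78 (SE). The mean difference of the brighter probe was -0.23 ± 0.89 (SE), from -0.95 at number 2 and 0.48 at number 3. Without KO 2 the value was 0.878.

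Cdkn1c encodes p57, an inhibitor of cyclin-dependent kinases. Its 1 probe, on chromosome 7 at 150644753 to 150644812, read 1.53 and 2.24 in WT and 1.75 and 1.71 in KO. The KO arrays were close together and lay between the WT arrays. The difference was -0.15 ± 0.33 (SE), with 0.22 at number 2 and -0.53 at number 3. Kcnq1ot1, the noncoding RNA that silences Cdkn1c on the paternal copy, differed by -0.32 ± 0.28 (SE). Its relative signals were 1.16 and 1.42 in WT and 0.74 and 1.20 in KO.

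Grb10 encodes an adaptor that binds the insulin and IGF1 receptors and dampens their signal. It was among the steadiest of the 9. The brightest of its 3 probes, on chromosome 11 at 11830965 to 11831024, read 2.96 and 3.18 in WT and 2.65 and 3.09 in KO. The 3 probes differed by -0.20 to 0.0009 on average, all within 1 standard error of 0. Ndn, the gene of necdin, a growth suppressor of the MAGE family, read -0.58 and -0.26 in WT and -0.96 and -0.23 in KO. The Ndn difference was -0.17 ± 0.36 (SE).

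Mest encodes a membrane protein of the alpha/beta hydrolase family that is known from fat tissue and mesoderm. It was the 1 single-probe gene of the 9 with a higher mean in KO. The probe, on chromosome 6 at 30698279 to 30698338, read 2.23 and 1.74 in WT and 2.39 and 2.09 in KO. KO was higher by 0.16 at number 2 and 0.35 at number 3, but KO 3 lay below WT 2, so the groups overlapped. The difference was 0.26 ± 0.29 (SE).

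**Figure D3:**
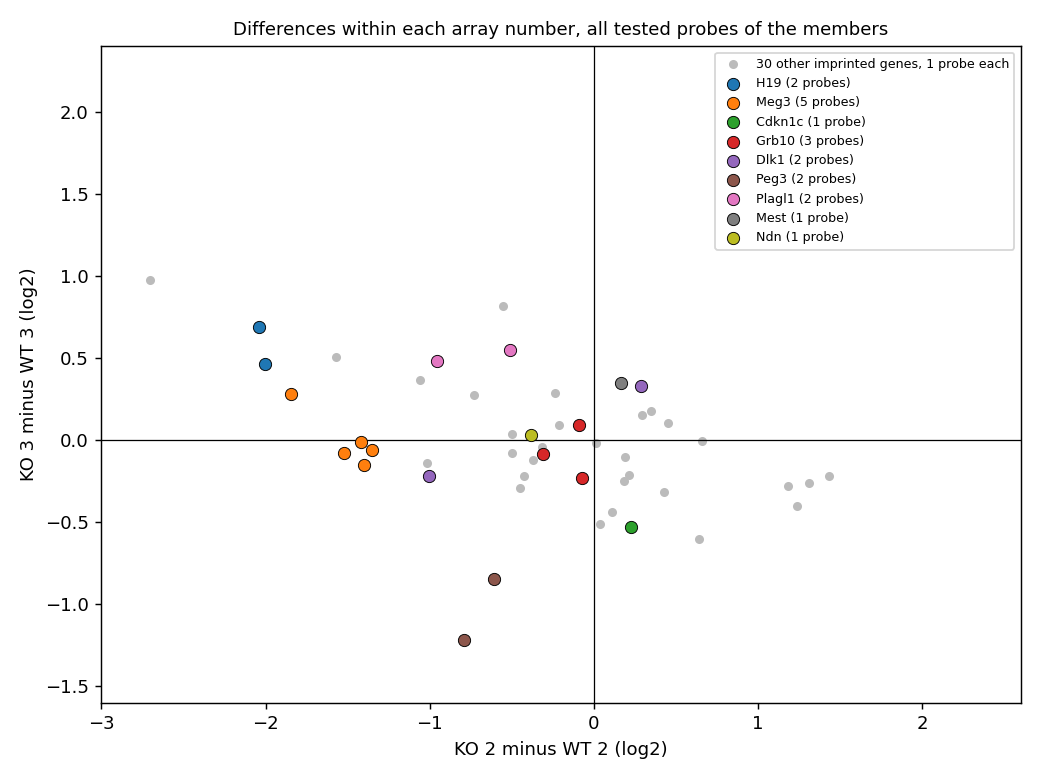
Difference between KO 2 and WT 2 (horizontal, log2) against the difference between KO 3 and WT 3 (vertical, log2) for the 19 tested probes of the 9 genes and, in grey, for 30 other imprinted genes. Probes of 1 gene share a colour. The H19 and Meg3 probes lay far to the left and near or above 0 on the vertical axis, and both Peg3 probes lay below 0 on both axes.

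The signs at the numbers were opposite for 4 of the 9 genes, H19, Cdkn1c, Plagl1 and Ndn, against 55.8% of all tested genes. Over the 4 arrays, the genes with the smallest root mean square difference from the mean profile of the 9 were Tmem138, Ikbip, Pikfyve, Pcdhb21 and Gxylt1. Their differences from that profile were 0.0992 to 0.104 log2 units, small by selection as the nearest of 5011 candidate genes. Those of the members themselves ran from 0.0817 for Ndn to 0.937 for Dlk1. The members thus did not share 1 profile, and the mean profile is led by KO 2, with a centred value of -0.507.

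A wider list of 46 other imprinted genes gave 42 with a probe and 30 that could be tested. By limma 0 of the 30 were called, 14 were higher and 16 lower in KO, and the median difference was -0.0183. None was past a fold change of 2, against 2.35% of all tested genes lower and 1.14% higher. The most negative differences were Dio3 at -0.86, Mkrn3 at -0.58 and Rian at -0.53, and the most positive were Kcnq1 at 0.61, Snurf at 0.52 and Nap1l5 at 0.45. The limma adjusted p was 0.9999 for each of these. Kcnq1, which encodes a cardiac potassium channel, read 1.85 and 0.95 in WT and 3.28 and 0.73 in KO. Snrpn and Snurf, which share a transcript and so are not independent, were also highest on KO 2, with 0.62 and -0.84. Imprinted genes thus lay on both sides of WT on KO 2, where 4 of the 30 were lower and 4 higher than WT 2 by more than 2-fold, against 9.39% and 6.95% of all tested genes. The lower ones were Mkrn3 and, from the same domain as Meg3, Rian, Mirg and Dio3. The higher ones were Kcnq1, Nap1l5, Snrpn and Snurf. Genes of the same domain are not taken as independent.

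The arrays also differed in markers of the cell types of the ventricle. The mean relative signal of 8 cardiomyocyte genes was 5.81 and 4.67 in WT and 6.85 and 3.79 in KO. That of 8 fibroblast and matrix genes was 5.96, 6.02, 5.12 and 5.89 on the same arrays. That of 6 macrophage genes was 2.85, 3.44, 1.67 and 3.68. All 8 cardiomyocyte genes were higher on KO 2 than on WT 2, while all 8 matrix genes and all 6 macrophage genes were lower. On KO 3 against WT 3 all 8 cardiomyocyte genes were lower, as were 4 of the 8 matrix genes and 1 of the 6 macrophage genes. The mean of the macrophage genes was lowest on KO 2 and highest on KO 3, as were H19, Plagl1 and Ndn, but of the 6 macrophage genes Cd14 was highest on WT 2 and Mrc1 on WT 3. The mean of 6 endothelial genes was higher on KO 2 than on WT 2 by 0.558 and differed by -0.306 between KO 3 and WT 3. Of 6 fat cell genes, Adipoq and Cidec stood out most on KO 2. Adipoq, the gene of adiponectin, read -1.59 there and was not well above background on the other 3 arrays, and Cidec read -0.83 there against -5.25 to -4.58 on the others. Plin1 read -4.49 on KO 2 against -7.00 to -6.41 on the others. Fabp4 differed less, with 7.41 on KO 2 against 5.89 to 6.40, as did Pparg, with 1.33 against 0.80 to 1.065. The leptin gene Lep was not well above background on any array. The part of cell composition in the values of the 9 genes was not tested.

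**Figure D4:**
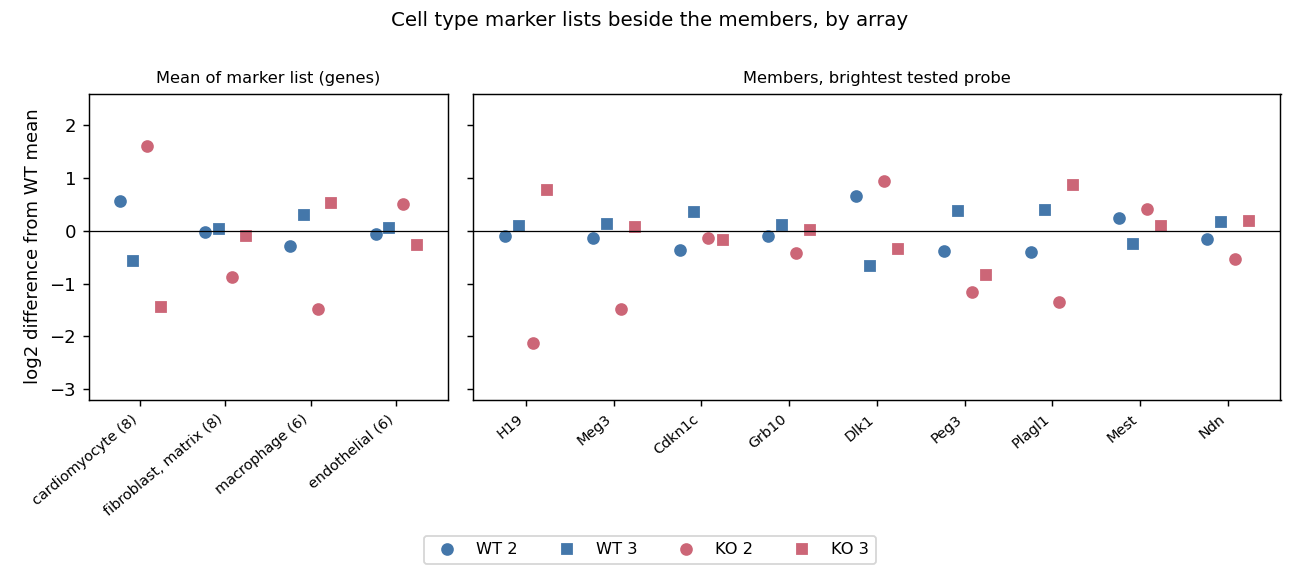
Log2 difference of each array from the mean of WT 2 and WT 3, for the mean of 4 lists of cell type markers (left, number of genes in parentheses) and for the 9 imprinted genes (right). KO 2 was highest for cardiomyocyte markers and lowest for matrix and macrophage markers, and H19, Meg3, Peg3 and Plagl1 were lowest there.

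The mean of the fibroblast and matrix genes differed by -0.832 at number 2 and -0.131 at number 3. Set against that mean on the same array, the difference of every gene rose by the size of these values. The H19 difference was then -1.21 at number 2 and 0.82 at number 3, and that of Meg3 was -0.521 and 0.0714. Plagl1 differed by -0.122 at number 2 and 0.616 at number 3. For Peg3 the values were 0.0393 and -1.08, so at number 2 it differed by nearly as much as the matrix genes. Mest and the brighter Dlk1 probe were higher in KO at both numbers with this shift included. The values were 0.995 and 0.48 for Mest and 1.12 and 0.46 for that Dlk1 probe. The dimmer Dlk1 probe, lower in KO at both numbers before the shift, is not given on this scale. None of the 9 was called by limma in this form, where the lowest adjusted p among them was 0.7009.

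The promoters of 7 of the 9 genes were in a RefSeq table of windows from 250 bases before to 50 bases after the start (GRCm38.p6). The window of Meg3 and that of Peg3 held the letters TGACGTCA, the cAMP response element that CREB and ATF proteins are known to bind. They are shown with the element in capitals because the study follows Atf3. The search was made after values were seen. The element reads the same on both strands, and 1.79% of all 32851 windows held it. The 7 genes had 11 windows, so a count of genes and a share of windows are not on the same basis. The letters GGGCGG, the GC box, were searched as well. They were found for 4 of the 7 genes, Grb10, Mest, Ndn and Plagl1, and in 35.7% of all windows.
Meg3 promoter: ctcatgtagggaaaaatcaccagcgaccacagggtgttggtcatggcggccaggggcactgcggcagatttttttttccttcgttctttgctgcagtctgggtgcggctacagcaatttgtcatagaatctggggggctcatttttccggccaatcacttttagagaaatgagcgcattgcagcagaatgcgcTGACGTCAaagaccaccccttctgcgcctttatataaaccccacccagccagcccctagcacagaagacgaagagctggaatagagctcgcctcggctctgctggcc
Peg3 promoter: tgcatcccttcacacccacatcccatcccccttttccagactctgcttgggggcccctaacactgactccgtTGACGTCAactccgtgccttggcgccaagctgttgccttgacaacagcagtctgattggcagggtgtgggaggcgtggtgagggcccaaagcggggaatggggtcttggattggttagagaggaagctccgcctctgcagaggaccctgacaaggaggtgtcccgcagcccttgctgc
The Meg3 window is chr12:109540746-109541045 on the plus strand, and Meg3 has a further listed window without these letters. That of Peg3, cut at the start of transcription, is chr7:6730420-6730669 on the minus strand. The element began 57 bases before the start in Meg3 and 178 bases before it in Peg3. A match in letters is a description of the window and says nothing of binding in these hearts.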

How the data were processed

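RNA from 4 left ventricle samples was hybridised to 4 Agilent arrays, 2 KO and 2 WT, and group and number came from the sample titles. The authors deposited the intensity values of each array from Agilent Feature Extraction (version 10.7.3.1 per the file headers, grid annotated on mm9), background-subtracted, detrended, and given a surrogate where a spot was not above background. They also deposited log2 values normalized with GeneSpring, and between 99.85% and 99.94% of these on tested probes lay within 0.01 of the quantile-normalized log2 signal, with a column median of 6.78.

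Outlier spots were left out, spots of a probe were averaged, and log2 processed signals were shifted by the 75th percentile of each array. Probes well above background on both arrays of a group were tested with limma 3.58.1 in R 4.3.3 (lmFit, eBayes), which was also tested on simulated data. A call needed a fold change over 2 and a Benjamini-Hochberg adjusted p under 0.05. Of the 41174 probes, 31437 had a current RefSeq symbol (GRCm38.p6), 2200 an older one and 91 a matching accession. The precision is limited by 2 arrays per group. Named were all 9 genes with every probe, Kdm5b, Igf2, the 3 largest differences of other imprinted genes in either direction, and the 5 nearest profiles. Usp29, Mirg, Kcnq1ot1, Peg12 and Snrpn, neighbours of members, and the sex-linked, marker and promoter items were added after values were seen. The other lists, too, were chosen with earlier results of these data known. Alternatives were normexp, quantile and median scaling, other filters, the authors' values, arrays left out in turn, the number as a block, the methods' t-test, trend and robust eBayes, the mean of probes and, chosen after seeing the data, scaling to the matrix genes. Slide and scan day were shared by all arrays.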

Additional observations from a re-analysis of the deposited data

Results flagged for a closer look

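The difference between KO and WT had opposite signs at the array numbers for 4 genes. It was -2.04 at number 2 and 0.688 at number 3 for H19, 0.224 and -0.532 for Cdkn1c, -0.954 and 0.485 for Plagl1, and -0.38 and 0.0318 for Ndn. Each value rests on 1 array per genotype, and the difference between the numbers was not tested. Opposite signs held for 44.4% of the imprinted growth-control genes, 55.8% of all tested genes and 70.0% of the other imprinted genes tested. Opposite signs therefore do not set the growth-control genes apart.

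Xist, which enters no comparison, gave relative signals of 4.36 on WT 2 and 4.0 on KO 2, both labelled male.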

How the results depend on the processing

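With all 4 arrays, the number of the 9 genes called by limma was 0 in each setting, as it was for the other imprinted genes and for all tested probes, while 410 probes had an unadjusted p under 0.05. The number past a fold change of 2 was 1, Peg3, whose difference lies at that threshold. It was 0 with normexp, with quantile normalization, with the median shift, with the authors' values, with the mean of probes and relative to the matrix genes. Without 1 array or another it ranged from 0 to 4, the 4 without KO 3. For the other imprinted genes it was 0, then 2 relative to the matrix genes and 1 to 8 with 1 array left out, the 8 without KO 3. The medians, -0.198 for the 9 and -0.0183 for the others, were 0.283 and 0.463 relative to the matrix genes, and that at number 2 was 0.452. That scaling also reversed Cdkn1c (0.328), Grb10 (0.283), Plagl1 (0.247) and Ndn (0.308), by construction, as the mean of the matrix genes was lower in KO. The mean of probes reversed Dlk1 (-0.152). With 1 array left out the median of the 9 lay between -0.541 and 0.0697, H19 between -2.13 and 0.782, Meg3 between -1.48 and 0.0697, Plagl1 between -1.35 and 0.878, Dlk1 between -0.362 and 0.976, Cdkn1c between -0.511 and 0.204, Grb10 between -0.417 and 0.0208 and Ndn between -0.541 and 0.193. Leaving out KO 2 reversed H19, Meg3, Plagl1, Grb10, Ndn and Dlk1, and leaving out WT 3 reversed Cdkn1c, Plagl1 and Dlk1. The cause was not tested. Peg3 lay between -1.38 and -0.63 and Mest between 0.00947 and 0.502. Of Peg3 the direction cannot reverse there, since its groups do not overlap. Kdm5b lay between -1.46 and -0.529. Where an array is left out, the lone array of its group is assumed to vary like the others. The share of all tested genes past a fold change of 2 in KO against WT is given only for the main scaling with all 4 arrays. The counts in other settings therefore do not set the 9 or the other imprinted genes apart.

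With the number as a replicate block, 0 of the 9 genes and 0 of 28305 probes were called, against 0 without it, and 602 probes had an unadjusted p under 0.05, Peg3 among them as the 1 of the 9 genes. Arrays of the same number deviated together (correlation 0.569 across probes), but with 2 numbers this does not show pairing. The numbers also differed in Xist and Ddx3y. The median difference over all probes was 0.132 with normexp and 0.0175 in the report.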
